A study of Mus musculus with 768 samples.

Results

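Muscle stem cells, or satellite cells, are recognised by a small set of transcription factors, and 8 of these genes were described here across all cells of the deposited RNA table: *Pax7*, *Pax3*, *Myf5*, *Myod1*, *Myf6*, *Msc*, *Six4* and *Eya1*. They were chosen by gene symbol, and each matched 1 row of the 25952 genes in the table. The table holds raw read counts of 377 single cells sorted from the tibialis anterior muscle of *Tg:Pax7-nGFP* mice, in which a nuclear GFP is driven from *Pax7* sequences, and the brightest cells were taken. There were 253 cells from 4 young mice (Y4, Y5, Y7 and Y8, labelled 2 months) and 124 cells from 2 old mice (O1 and O5, labelled 24 months), all carrying the same transgene with no treatment in their labels, and the study's text gives somewhat different ages. The mice were males of a mixed C57BL/6 and DBA2 background. The digested muscle had been frozen and thawed before the sort, and each cell's cDNA was made by a full-length protocol with many PCR cycles and no molecular identifiers. A read is therefore not an independent molecule, and intervals and floors below cover counting error only.

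As background, PAX7 and its paralog PAX3 are paired-box factors that specify the muscle stem cell and activate *Myf5* and *Myod1*. MYF5, MYOD1 and MYF6 are myogenic bHLH factors, which bind DNA with E-protein partners and commit cells to the muscle lineage. MSC (musculin, or MyoR) is a bHLH repressor that competes for these partners, and SIX4 acts with its co-factor EYA1 upstream of the myogenic bHLH genes. Quiescent satellite cells are known to carry *Pax7* and *Myf5* transcripts, while MYOD1 protein appears upon activation.

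Because several of these genes are paralogs, their coding sequences were compared first, to show how far a read of one could be taken for another. The stretch below codes for the basic, DNA-binding part of the bHLH domain, and holds the longest run of identical bases between *Myf5* and *Myod1*. It is shown for the 3 myogenic bHLH genes from GENCODE M21 transcripts (GRCm38), all within a coding exon, at chr10:107485622-107485711 on the minus strand for *Myf5*, chr7:46376971-46377060 on the plus strand for *Myod1* and chr10:107494365-107494454 on the minus strand for *Myf6*. Capitals mark positions at which at least 1 of the genes differs from the others.
Myf5: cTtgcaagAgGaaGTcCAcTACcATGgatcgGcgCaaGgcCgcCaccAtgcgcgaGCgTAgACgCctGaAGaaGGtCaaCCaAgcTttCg
Myod1: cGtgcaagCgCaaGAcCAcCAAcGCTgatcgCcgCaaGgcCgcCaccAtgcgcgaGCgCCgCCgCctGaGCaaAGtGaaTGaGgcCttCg
Myf6: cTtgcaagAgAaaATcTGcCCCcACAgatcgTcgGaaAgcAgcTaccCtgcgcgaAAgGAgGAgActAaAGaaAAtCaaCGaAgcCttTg

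Over these 90 bases *Myf5* and *Myod1* shared 69 and *Myf5* and *Myf6* shared 64. The longest identical run in the coding sequence was 26 bases between *Myf5* and *Myod1* and 14 bases between *Myf6* and either of them. The paired-box genes are closer to each other. Their longest identical run, also of 26 bases, lies near the start of the coding sequence and is shown with its surroundings. These span 2 coding exons in each gene: chr4:139832827-139832865 and chr4:139830323-139830373 for *Pax7*, and chr1:78196665-78196703 and chr1:78195436-78195486 for *Pax3*, all on the minus strand. Capitals mark the bases that differ.
Pax7: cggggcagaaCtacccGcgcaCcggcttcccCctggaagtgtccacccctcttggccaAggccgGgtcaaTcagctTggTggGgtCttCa
Pax3: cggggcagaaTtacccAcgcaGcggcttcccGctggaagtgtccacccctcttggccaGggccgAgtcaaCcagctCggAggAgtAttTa

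Of the 90 bases, 78 were the same in *Pax7* and *Pax3*. Between all other pairs of the 8 genes the longest shared run of coding bases was from 9 to 12. A read longer than these runs meets differing bases, although the read length and the treatment of reads with several matches are not given in the sources used here.

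In the genome, 4 of the 8 genes are neighbours in pairs. *Myf5* and *Myf6* lie 6718 bases apart on chromosome 10, and *Eya1* and *Msc* are neighbouring protein-coding genes on chromosome 1, with 443110 bases between them. *Msc* overlaps *Gm9947*, an annotated antisense gene (chr1:14752937-14776931). Reads of *Gm9947* were found in 92 cells, each of which also had reads of *Msc*, at 16% of the number of *Msc* reads. Since the use of strand in counting is not stated, reads of this pair cannot be told apart with certainty. For the other 7 genes no overlapping gene had a row in the table.

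Cells had from 101755 to 626142 reads on genes (median 272816), so that 3 reads, the floor taken for a count of 0, equal 11.0 RPM (reads of a gene per 1000000 reads of the cell) in a cell of median depth. Per cell, a median of 1823 to 2440 genes was detected in the young mice, and of 1594 (O1) and 1778 (O5) in the old. The column headers place Y4, Y5 and Y8 in lane 3 and Y7, O1 and O5 in lane 2. As a check of the cell type, 18 of 18 satellite cell markers had reads, with a summed level of 12895 to 19574 RPM by mouse. Lists for other cells were low: immune, myofibre and mural or glial markers each summed to at most 39.6 RPM in any mouse, and 6 of 9 endothelial markers had no read in any cell. The endothelial sum was 0.182 to 3.12 RPM in the young and 19.2 to 27.7 RPM in the old mice. In the old mice it rested on very few cells, with reads only of *Esam* in 3.57% of O1 cells and of *Egfl7* in 1.47% of O5 cells. The fibro-adipogenic sum was 578 to 975 RPM in the young and 281 to 349 RPM in the old mice. That list had no read for 5 of its 8 genes and only *Dpt* in at least 10% of cells. The part of these markers in the results below was not tested.

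A *Pax7* read, the transcript whose regulatory sequences drive the sorted reporter, was present in 339 of 377 cells, or 89.9% (95% exact binomial interval 86.4% to 92.8%). By mouse the share was 95%, 90.9%, 95.9% and 84% (Y4, Y5, Y7, Y8), against 82.1% and 91.2% (O1, O5). The ages overlapped, with a mean of 91.5% ± 5.43 (SD, n = 4) in young and 86.7% ± 6.39 (SD, n = 2) in old mice (p = 0.4, exact two-sided permutation test over mice, whose smallest p for 4 against 2 is 0.133). *Pax3* was rare. It had reads in 19 cells, from 1 cell of O1 to 6 cells of O5, and in Y8, Y4 and O1 a single cell gave 90.5%, 95.6% and 100% of the mouse's *Pax3* reads. *Pax3* reads were found in 17 cells with *Pax7* reads, where 17.2 were expected if the genes were detected independently within each mouse.

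Of the myogenic bHLH genes, *Myf5* and *Myod1* were common and *Myf6* almost absent. *Myf5* had reads in 273 cells, or 72.4%. Its share was 80%, 77.3%, 74.3% and 80% in Y4, Y5, Y7 and Y8, and 51.8% and 69.1% in O1 and O5. Both old mice thus lay below each young mouse, at a mean of 60.5% ± 12.3 (SD, n = 2) against 77.9% ± 2.71 (SD, n = 4), a difference of −17.4 percentage points (p = 0.133, exact permutation test). Without O1 it was −8.78 points, and without O5 −26.1 points. *Myod1* had reads in 182 cells, or 48.3%, with 40.9% to 55.4% in the young and 42.9% and 50% in the old mice, which overlapped (p = 0.933, exact permutation test). *Myf6*, a factor of late differentiation, had reads in 1 cell of Y4 (86 reads) and 1 cell of O1 (41 reads) and in no other cell. *Myog*, the bHLH gene that starts terminal differentiation, had reads in 0 of 377 cells, which allows a share of up to 0.796% for cells with a read, and sets no limit on cells expressing it.

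*Msc*, the bHLH repressor gene, was also found in fewer cells of the old mice than of the young. It had reads in 104 cells, or 27.6%. The share was 50%, 40.9%, 27% and 24% (Y4, Y5, Y7, Y8), and 14.3% and 14.7% (O1, O5). The young mice spread widely, yet all lay above both old mice, with means of 35.5% ± 12.2 (SD, n = 4) and 14.5% ± 0.297 (SD, n = 2) and a difference of −21.0 points (p = 0.133, exact permutation test). Reads of the antisense gene over the same locus were in 21.3% to 40% of cells in the young and 14.3% and 13.2% in the old mice. They were found only in cells with *Msc* reads and cannot be told apart from them with certainty, so this is not a separate result.

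*Six4* and its co-factor gene *Eya1* were detected in few cells. *Six4* had reads in 29 cells, with 8.11% to 11.4% in the young mice and 1.79% (O1, 1 cell) and 5.88% (O5, 4 cells) in the old, again without overlap (p = 0.133, exact permutation test). At a minimum of 5 reads the *Six4* shares did overlap, with 5.41% in Y7 and 5.88% in O5 (p = 0.267, exact permutation test). *Eya1* had reads in 66 cells, or 17.5%, and was even among the young mice, at 18.2% to 20.3%, while the old mice differed from each other, at 19.6% (O1) and 8.82% (O5).

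**Figure D1:**
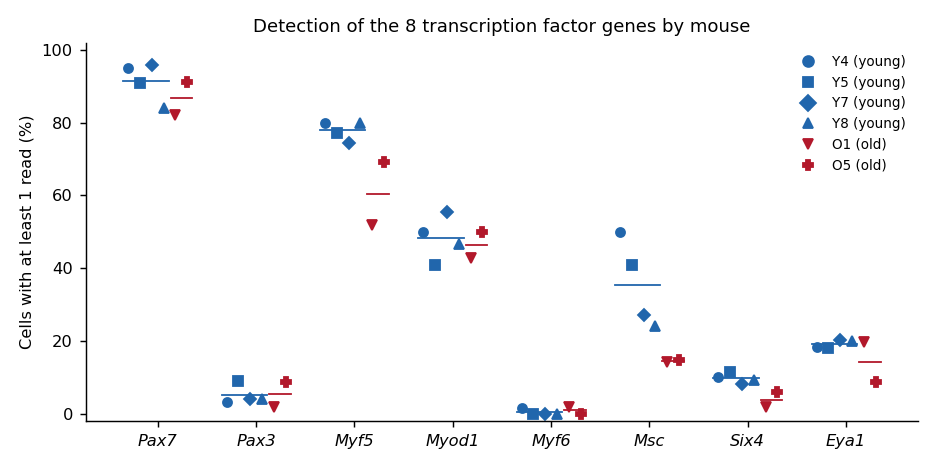
Percent of cells with at least 1 read (vertical axis) for each of the 8 genes, 1 point per mouse (blue: 4 young, red: 2 old), with lines at the mean of each age. The red points lie below all blue points for *Myf5*, *Msc* and *Six4*, and overlap them for the other 5 genes.

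These differences have to be read beside all genes, since fewer genes were detected per cell in the old mice. Among 5899 genes detected in 10% or more of all cells, 22.2% had a smaller share of cells in both old mice than in any young one, 1.9% a larger share, and the median gene differed by −4.65 points. Of the 5 members in this set, *Myf5* and *Msc* were of the first kind and none of the second. When the cells were grouped into tertiles by the number of genes detected and each mouse's shares averaged over the tertiles, 10.5% of the 5899 genes lay lower in both old mice and the median difference was −1.15 points. On this scale *Msc* kept its separation (26.1% to 51.3% in young against 16.1% and 16.6% in old mice) and so did *Six4*, while *Myf5* overlapped, with 65.9% in Y7 and 68% in O5. *Eya1*, which overlapped at 1 read, was separated on this scale (18.2% to 22.7% in young against 14.3% and 10.5% in old mice), and also at 5 reads, at 10 RPM and after thinning (exact permutation p = 0.133 in each case). The tertiles were unevenly filled, since only 4 cells of O1 were in the one with the most genes and 6 cells of Y7 in the one with the fewest. Within lane 2, which holds 1 young mouse, the old minus young difference was −13.9 points for *Myf5*, −12.5 for *Msc* and −4.27 for *Six4*, and has no replicate check on the young side. Read depth itself overlapped between the ages, with a median of 221106 to 346183 reads a cell in the young and 219652 (O1) and 280124 (O5) in the old mice. With each cell thinned to 100000 reads the differences were −18.6 points for *Myf5*, −20.7 for *Msc* and −5.85 for *Six4*, each without overlap.

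In cells that had a read, the median levels of the 2 ages overlapped for all 5 members measured. *Pax7* had a median of 562 RPM over its 339 cells, with the middle of the cells between 135 and 1226 RPM and the highest at 6374 RPM. By mouse the median *Pax7* level was 830, 442, 730 and 372 RPM in Y4, Y5, Y7 and Y8, and 566 and 592 RPM in O1 and O5, inside the range of the young. *Msc*, detected in fewer old cells, had medians of 688, 841, 485 and 808 RPM in the young and 538 and 1086 RPM in the old mice, with an old over young ratio of 1.11 (p = 0.667, exact permutation test). *Myod1* had a median of 940 RPM and 240.5 reads in its cells and reached 17048 RPM, though 11 of the 182 cells had under 5 reads. Its medians of 738 (O1) and 1172 (O5) RPM lay within those of the young mice, 421 to 1205 RPM.

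For *Myf5* the median level was 698, 335, 235 and 398 RPM in Y4, Y5, Y7 and Y8 and 286 and 180 RPM in O1 and O5, a ratio of 0.590 that overlapped between ages (p = 0.267, exact permutation test) and came to a log2 ratio of 0.023 when means replaced medians. *Eya1* medians ran from 53.4 to 344 RPM in the young mice and were 21.2 (O1) and 405 (O5) RPM in the old, so that the old mice spanned the young. Of the 5 members with at least 5 expressing cells in every mouse, none had medians below all young mice in both old mice. Among 4343 genes with as many expressing cells, 15.7% did.

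**Figure D2:**
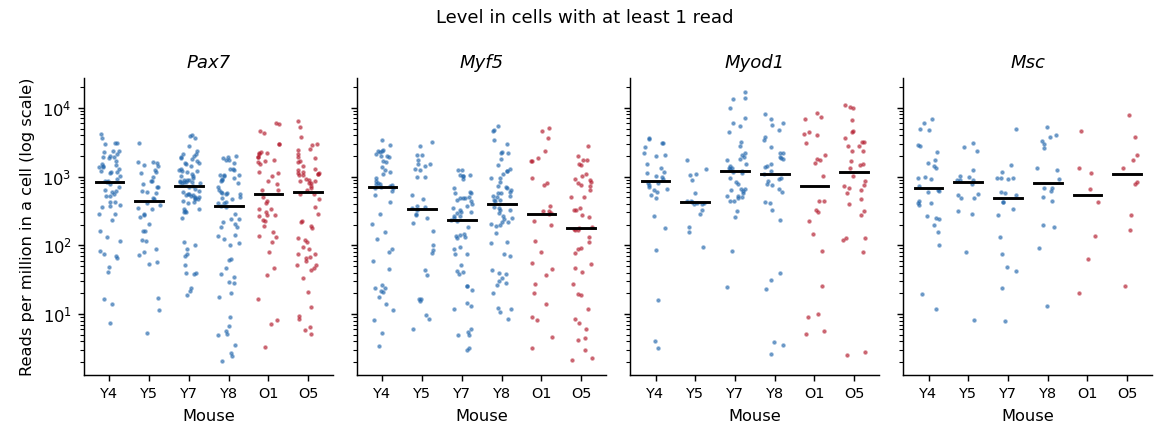
RPM in each cell with at least 1 read (vertical axis, log scale) for *Pax7*, *Myf5*, *Myod1* and *Msc* by mouse (blue: young, red: old), with a black line at the median of the mouse. Each gene spans more than 2 orders of magnitude between cells, and the medians of the old mice fall among or near those of the young, as for *Pax7* with 566 and 592 RPM.

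When each mouse's reads were pooled over its cells and compared across 12576 genes with edgeR's quasi-likelihood test, no gene passed an adjusted p of 0.05 (0%), and 1240 genes, or 9.86%, had an unadjusted p under 0.05, none of them a member. DESeq2 called 544 genes at the same threshold, again without a member, although it gave *Pax3* and *Myf6* no adjusted p. The summed level of *Pax7* was 1011, 592, 825 and 402 CPM, the same scaling applied to summed reads, in Y4, Y5, Y7 and Y8 and 1018 and 881 CPM in O1 and O5, with a log2 fold change of 0.61 ± 0.38 (SE, edgeR adjusted p = 0.634). For *Msc* the sums were 713, 388, 214 and 411 CPM in the young and 135 and 303 CPM in the old mice (log2 fold change −0.82 ± 0.52, SE, edgeR adjusted p = 0.648). One cell of O5 gave 53% of that mouse's *Msc* reads and one cell of Y7 gave 44%, so these sums rest on few cells. On the mean of log2(RPM + 1) over cells, which gives such cells less weight, limma gave *Msc* a difference of −1.93 ± 0.60 (SE, unadjusted p = 0.00192, adjusted p = 0.176).

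For the other members the edgeR adjusted p was above 0.6 in each case. The largest estimate was that of *Six4*, −1.94 ± 1.32 (SE, edgeR adjusted p = 0.681), with 0.551 CPM in O1 from 1 cell. *Myod1* sums were uneven among the young mice, from 249 CPM in Y5 to 1619 CPM in Y7, and the old mice, 854 (O1) and 1061 (O5) CPM, lay between. The median log2 fold change of all tested genes was −0.06.

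Levels of different genes were compared per length, as mean RPM over all cells divided by the exon length in kb. *Myod1* stood first at 474 ± 239 (SD over 6 mice), followed by *Myf5* at 238 ± 88.5, *Msc* at 141 ± 84.5 and *Pax7* at 137 ± 40.9. Then came *Eya1* at 8.53 ± 2.39, *Pax3* at 3.90 ± 4.83, *Six4* at 2.54 ± 2.05 and *Myf6* at 0.735 ± 1.15. Neighbours in this order overlapped between mice at every step but that from *Pax7*, whose lowest mouse had 76.1, to *Eya1*, whose highest had 11.4. *Pax7* was thus the gene found in the most cells but not the one with the most reads per kb.

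For their mean level, *Msc* was unevenly spread over cells in all 6 mice, and *Myod1* in all but Y5. The distance to the median (DM) is a gene's squared coefficient of variation, on a log10 scale, less the rolling median of genes of like mean. *Myod1* DM was 0.15, 0.00, 0.83 and 0.48 in Y4, Y5, Y7 and Y8 and 0.30 and 0.48 in O1 and O5, at percentiles from 50.1 to 99.9 of the genes of each mouse. *Msc* DM was 0.25 to 0.60, at percentiles from 84.7 to 99.2 in all 6 mice. *Pax7* lay near its peers, at −0.11 to 0.08 and percentiles from 28.6 to 63.3. *Myf5* DM ran from −0.14 to 0.27 without an order by age.

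Detection gave the same contrast. It is not a separate result, because at a like mean fewer cells with reads go with a larger variation. *Myod1* stood below genes of like mean in every mouse. In Y7 it had reads in 55.4% of cells while the 100 genes nearest to it in mean RPM had a median of 95.3%, and in O5 the values were 50% and 82.4%. *Msc* stood below such genes in every mouse, for example at 14.7% against 45.6% in O5. *Pax7* stood above them in every mouse, with 84% against 59.3% in Y8. None of the DM values differed between ages beyond the spread of mice, the exact permutation p being 0.267 for *Pax7* and from 0.667 to 1 for *Myf5*, *Myod1*, *Msc* and *Eya1*.

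The number of the 8 genes with reads in a cell averaged 2.88 ± 0.165 (SD, n = 4) in the young and 2.32 ± 0.230 (SD, n = 2) in the old. The means by mouse were 3.08, 2.89, 2.85 and 2.68 in Y4, Y5, Y7 and Y8 and 2.16 and 2.49 in O1 and O5, with no overlap (difference −0.55 genes, p = 0.133, exact permutation test). Cells of the old mice also had fewer genes of any kind, with medians of 1594 (O1) and 1777.5 (O5) against 1823 to 2440.5 in the young. As given above, 22.2% of 5899 genes had a smaller share of cells in both old mice than in any young one. The lower count of members has to be read beside this general fall. Over all cells, 142 had 3 of the 8 genes, 112 had 2, and 6 cells had none. One cell of Y4 had 7 of them, lacking *Myf6*, with 267129 reads and 2411 genes detected, which ranked 10 of 60 in its mouse.

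By *Pax7*, *Myf5* and *Myod1* alone, 120 cells (31.8%) had all 3, 133 (35.3%) had *Pax7* and *Myf5*, 44 had *Pax7* and *Myod1*, and 42 had only *Pax7*. Cells with *Pax7* and *Myod1* but without *Myf5* made up 10%, 4.55%, 10.8% and 6.67% of Y4, Y5, Y7 and Y8 and 21.4% and 16.2% of O1 and O5. Both old mice lay above all 4 young ones (difference 10.8 points, p = 0.133, exact permutation test). On average this class made up 11.6% of a mouse's cells, where 11.7% were expected from the separate shares of the 3 genes. Both are means over mice of both ages, so they do not bear on the age difference. Whether the age difference of this class goes beyond the lower share of old cells with *Myf5* reads was not tested. Cells with all 3 genes made up 31.8% to 41.9% of the young and 12.5% and 30.9% of the old mice. Of the 38 cells without a *Pax7* read, 25 had reads of *Myf5* or *Myod1*, and 6 had none of the 8 genes. The 13 cells with none of *Pax7*, *Myf5* and *Myod1* made up 3.54% of a mouse's cells on average, where 1.70% were expected from the separate shares, and the 7 cells with *Myf5* alone 1.80%, where 3.78% were expected. These 38 cells had a median of 230674 reads and 1760 genes detected, against 272974 reads and 1950 genes in the others, and the part of depth in their lack of *Pax7* reads was not tested.

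**Figure D3:**
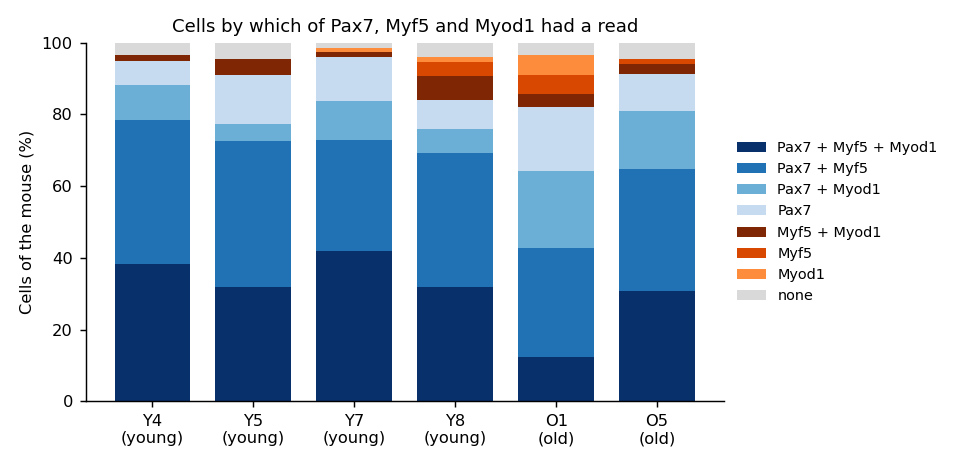
Percent of the cells of each mouse (vertical axis, stacked bars) by which of *Pax7*, *Myf5* and *Myod1* had at least 1 read. Cells with *Pax7* and *Myod1* but not *Myf5* take 21.4% of O1 and 16.2% of O5 and at most 10.8% of a young mouse. Their mean over the mice of both ages is 11.6%, with 11.7% expected from the separate shares, which does not bear on the age difference.

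For the pairs with enough cells, the numbers with both genes were mostly close to those expected from each gene alone. For each pair, the number of cells with both genes was set beside the number expected from the product of the 2 shares in that mouse. *Myf5* and *Myod1* were found together in 133 cells, with 132 expected. The widest gap was in O1, with 9 cells observed and 12.4 expected, and the other 5 mice had 24, 16, 32, 29 and 23 observed (Y4, Y5, Y7, Y8, O5) and 24, 13.9, 30.5, 28 and 23.5 expected. *Pax7* and *Myod1* were together in 164 cells, with 164 expected.

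*Pax7* and *Myf5* were together in 253 cells, with 246 expected, and the observed number was the larger in 6 of 6 mice, by a mean log2 ratio of 0.036 ± 0.014 (SD over mice). *Pax7* and *Msc* had 95 observed and 94.9 expected, and *Pax7* and *Eya1* had 59 and 59.2. These were the 5 pairs with at least 5 cells expected in every mouse. The log2 ratio of observed to expected did not overlap between ages for *Pax7* and *Msc* (−0.12 to 0.058 in young, 0.085 and 0.13 in old mice). Nor did it for *Myf5* and *Myod1* (0 to 0.20 in young, −0.44 and −0.030 in old mice). Each was at the smallest p that 4 against 2 mice allow (0.133, exact permutation test). The share of other gene pairs whose ages separate was not determined, so there is no background to set beside these separations. In cells, they rest on small gaps. *Pax7* and *Msc* had 7 observed and 6.57 expected in O1, and 10 and 9.12 in O5. *Myf5* and *Myod1* had 24 and 24 in Y4, and 23 and 23.5 in O5. The log2 ratio overlapped for the other 3 pairs. The remaining 23 of 28 pairs were too rare to test. Among them, *Myf5* and *Msc* were together in 80 cells with 78.2 expected, though in O1 in 1 cell with 4.14 expected, and *Six4* and *Eya1*, whose proteins act together, in 4 cells with 5.17 expected.

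**Figure D4:**
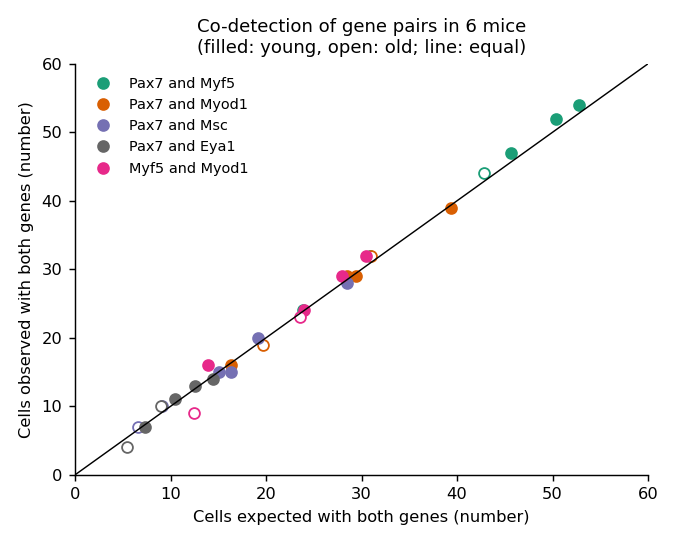
Number of cells with reads of both genes of a pair (vertical axis) against the number expected from their shares in the mouse (horizontal axis), for the 5 tested pairs in 6 mice (filled: young, open: old). Points follow the line of equal numbers, and *Myf5* and *Myod1* in O1, with 9 cells observed and 12.4 expected, lies farthest below it.

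In level, too, the members were mostly weakly related. Spearman's rho between genes was computed over the 44 to 75 cells of each mouse, and is given as a description, because the cells of a mouse share their preparation and sequencing. Between *Pax7* and *Myod1* it was −0.10, −0.29, −0.14 and −0.02 in Y4, Y5, Y7 and Y8 and −0.14 and −0.13 in O1 and O5, so it was below 0 in each mouse, and low throughout. Between *Pax7* and *Myf5* the mean rho was 0.14 ± 0.15 (SD over 6 mice), above 0 in 5 mice. Between *Myod1* and *Msc* rho was 0.08 to 0.19 in the 4 young mice and −0.11 and −0.06 in the 2 old mice. Between *Myf5* and *Msc* it was −0.0024 to 0.15 in the young and −0.26 and −0.014 in the old mice. Between *Msc* and *Eya1* it was −0.28 to 0.17 in the young and 0.31 in each old mouse. Only 4 cells of O1 and 3 cells of O5 had reads of both *Msc* and *Eya1*.

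The genes whose levels went most closely with *Pax7* were early response genes. Among 1767 other genes with reads in at least 20% of the cells of every mouse, *Egr1* had the highest mean rho, at 0.31, with 0.34, 0.33, 0.30 and 0.27 in Y4, Y5, Y7 and Y8 and 0.33 and 0.31 in O1 and O5. *Junb* (0.30), the growth-inhibitory gene *Btg2* (0.30), *Fosb* (0.28) and *Fos* (0.26) followed, all above 0 in all 6 mice and nearly the same when the number of genes detected was held constant (0.26 to 0.31). Over all 1767 genes the median of the mean rho was 0.00, with 90% of genes between −0.11 and 0.11, and 4.41% of genes were above 0 and 3.51% below 0 in all 6 mice.

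The lowest mean rho with *Pax7* was that of *Akap2*, which codes for a kinase-anchoring protein, at −0.24. *Gm20459*, at −0.23, starts upstream of *Akap2* and had nearly the same counts (rho 0.998 between them over all cells), so it is not a separate result. *Odc1*, the first enzyme of polyamine synthesis, had −0.22, *Bcar3* −0.21 and *Stard13* −0.18, all below 0 in 6 of 6 mice.

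Of a list of 26 genes known to respond to cell isolation, 22 passed the filter. With *Pax7*, 16 of the 22 had a mean rho above 0 and the median was 0.15, between 0.10 and 0.23 by mouse, beside 0.00 over all genes. In all 6 mice, 10 of the 22 were above 0 (among them *Fos*, *Jun*, *Junb*, *Egr1*, *Zfp36* and *Nr4a1*) and 1, *Fosl1*, was below 0, at −0.15. Of 14 measured satellite cell markers, 12 had a mean rho above 0 with *Pax7* (median 0.07), led by *Chodl* (0.20) and *Notch3* (0.18).

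When the cells of each mouse were ranked by the mean log2(RPM + 1) of the 25 early genes in the table, *Pax7* was found in 66.7% to 90% of the lowest tertile and in 95.5% to 100% of the highest. The ranking uses early genes whose rho in the same cells is given above, so it is not a separate result. The mean *Pax7* level was higher in the highest tertile in 6 of 6 mice, for example 1249.5 against 472 RPM in Y7 and 1344 against 387 RPM in O5. The median level was higher there in 5 mice, but not in Y5, at 396.5 against 407.5 RPM. The number of genes detected did not go with these tertiles in one direction, with medians of 2571.5 and 2274 genes (lowest and highest tertile) in Y7 and 1595 and 1775.5 in O1. Since all cells had been digested, frozen, thawed and sorted, early gene levels before isolation were not measured.

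*Myf5* shared part of these correlates. *Spry1*, an inhibitor of receptor tyrosine kinase signalling that marks quiescent satellite cells, had the highest mean rho with *Myf5*, at 0.25, and it was 0.35, 0.19, 0.17 and 0.30 in Y4, Y5, Y7 and Y8 and 0.35 and 0.12 in O1 and O5. *Junb* (0.23), the nuclear receptor gene *Nr4a1* (0.23), *Id3* (0.21), which codes for an inhibitor of bHLH proteins, and *Fos* (0.19) came next, of which *Nr4a1* and *Id3* were above 0 in 5 mice and the others in 6. Over the 1767 genes, 2.49% were above 0 and 2.55% below 0 in all 6 mice. Of the 22 early genes, 18 had a mean rho above 0 (median 0.11), 6 were above 0 in all mice, and *Fosl1* was below 0 in all. *Calcr*, the calcitonin receptor gene of quiescent satellite cells, had a mean rho of 0.18 with *Myf5* and 0.02 with *Pax7*. At the other end stood the ribosomal protein gene *Rpl34* (−0.19), *Mgat2* (−0.18), *Rbm25*, *Prkab2* and *Sgms2*. Given the number of genes detected, *Gm9761* (−0.18) and *Sec61g* (−0.17) joined the 5 lowest.

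*Myod1* had weaker correlates, and other genes stood at the ends of its range. Most genes had a mean rho between −0.08 and 0.10 with *Myod1*. The highest mean rho was that of *Baiap2* (0.21, from 0.07 in O5 to 0.44 in O1), and *Ilf2* (0.19), *Gnl3*, a nucleolar protein gene (0.18), and *Abhd2* (0.18) were also among the 5 highest. Given the number of genes detected, *Flnc* (0.18) and *Baz1a* (0.16) entered the first 5. The lowest were *Map3k12* (−0.15, but 0.16 in O5), *Sertad1* (−0.15), *Araf* (−0.14), *Pax7* itself (−0.14) and *Spcs2* (−0.14). *Peg3* (−0.14) was among the lowest given the number of genes detected. Of all genes 3.06% were above 0 and 1.75% below 0 in all mice. Of the 22 early genes none was above 0 in all mice, 1 (*Junb*, −0.12) was below 0 in all, and the median was −0.03.

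*Msc* was under the 20% minimum in O1 and O5, and its values were looked at because of its age pattern, after they had been seen. Of the 22 early genes, 16 had a mean rho below 0 with *Msc*, with a median of −0.07, beside 0.02 over all genes. *Junb* (−0.23), *Egr1* (−0.21) and *Fosb* (−0.20) were the lowest of all 1768 genes and were below 0 in all 6 mice, as were 1.24% of genes, while 3.28% of genes and none of the 22 were above 0 in all mice. In the tertile of cells with the highest early gene levels the mean *Msc* level was lower than in the lowest tertile in 6 of 6 mice, at 344 against 1126 RPM in Y4, 78.9 against 701 in Y5, 197 against 368 in Y7, 266 against 512 in Y8, 1.11 against 47.4 in O1 and 12.7 against 666 in O5. The share of cells with *Msc* reads was lower in the highest tertile in 5 mice, but in Y7 it was 29.2%, against 25% in the lowest. These tertiles use the early genes of the rho values in the same cells, so they are not a separate result. As given above, single cells hold 44% of the *Msc* reads of Y7 and 53% of those of O5. With 8 and 10 *Msc* cells in O1 and O5, the values of the old mice rest on few cells.

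**Figure D5:**
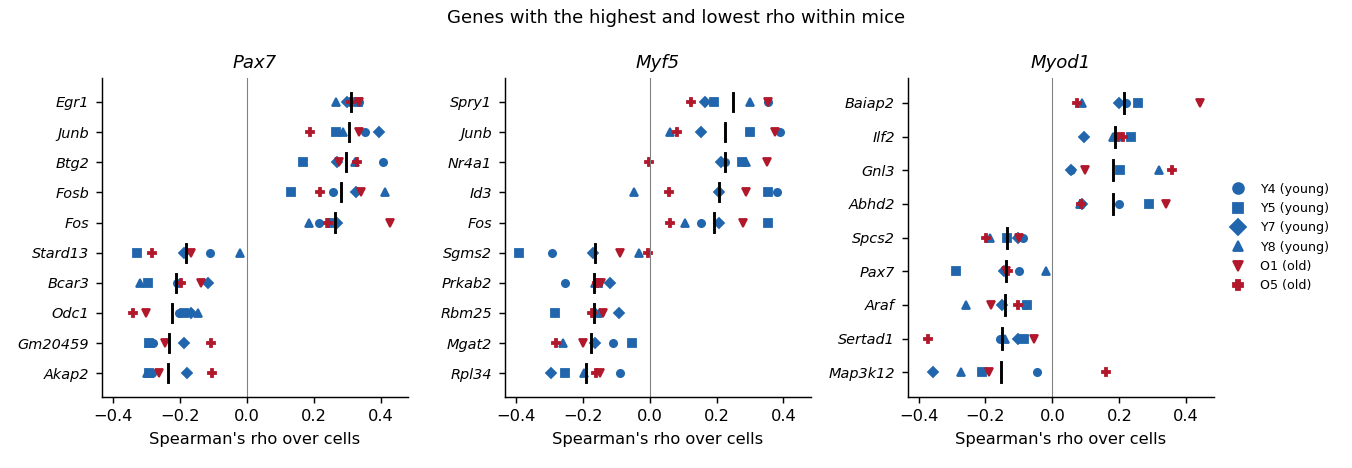
Spearman's rho over the cells of each mouse (horizontal axis) between *Pax7*, *Myf5* or *Myod1* and genes among the 5 with the highest and the 5 with the lowest mean rho (black bars: mean of 6 mice; blue: young, red: old). All 6 mice lie above 0 for the 5 highest genes of *Pax7*, while those of *Myod1* with *Map3k12* (mean −0.15) lie on both sides of 0.

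The wider network around the members was read from fixed lists, by the share of cells with a read and by summed counts. Only genes in at least 10% of cells can be set beside the 22.2% given above. *Eya4*, a paralog of *Eya1*, overlapped between the ages, at 5.33% to 20.3% and 5.36% and 20.6%.

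Of 11 measured genes for bHLH partners and inhibitors, 4 were lower in both old mice and none higher. These were *Tcf3* and *Tcf4*, which code for E-proteins, the partners of MYOD1 and MYF5, *Mdfic*, which codes for an inhibitor of the MyoD family, and *Snai2*. *Mdfic* was in 72% to 88.6% of young and 58.9% and 55.9% of old cells by mouse, and *Tcf4* in 66.7% to 81.1% and 55.4% and 61.8%. *Tcf12*, also an E-protein gene, overlapped between the ages, at 15% to 20.3% in young and 14.3% and 20.6% in old mice. In summed counts *Tcf3* was not lower in the old mice (log2 fold change 0.15 ± 0.70, SE). Of the inhibitor genes *Id1*, *Id2* and *Id3*, none was separated by age. By edgeR none of the 17 tested genes of this list passed an adjusted p of 0.05, and 1 (*Mdfic*, lower in old mice) had an unadjusted p under 0.05.

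Many genes of the differentiation programme had no read, but the list was not low in sum. It summed to 804 to 1224 RPM in the young and 1100 to 1173 RPM in the old mice. Of 23 in the table, 11 had no read in any cell and 6 were in at least 10% of cells, led by *Cdkn1a* at 59.4%. Among these, *Chrna1*, an acetylcholine receptor subunit gene, was in 14.7% to 35% of young and 7.14% and 5.88% of old cells by mouse, and *Cdkn1c*, a cell cycle inhibitor gene, in 4.55% to 12% and 21.4% and 20.6%, so 1 was lower and 1 higher in both old mice. Of 17 other *Pax* and early myogenic regulator genes, 8 had no read and only *Tbx1* was in at least 10% of cells, at 11.4% to 17.6% in young and 1.79% and 10.3% in old mice. Of 18 satellite cell markers, 5 were lower (*Itga7*, *Cdh15*, *Chodl*, *Des* and *Itgb1*) and 1 higher (*Cd34*) in both old mice.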

How the data were processed

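Single-cell RNA was measured in parallel with DNA methylation, which was not analysed here, nor were cells of mice that have labels but no column. The authors aligned reads to GRCm38 with HiSat2, kept cells with enough genes and reads, and deposited raw counts per gene and cell made in SeqMonk, without normalization. The annotation release and strand setting are not given in the sources used here. The table had 0 unmapped cell columns, and all 377 columns differed. Members and lists were chosen with earlier results of these data known. Genes were named as members, as genes next to a member, as list genes, or as the 5 highest and 5 lowest mean rho of members with reads in at least 20% of the cells of every mouse.

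Counts of 101755 to 626142 reads per cell were scaled to RPM, and summed per mouse, which was the replicate, for edgeR 4.0.16 (quasi-likelihood test after TMM scaling, adjusted by Benjamini-Hochberg with a threshold of 0.05). The labels do not say whether the mice of an age were handled separately, and Y7 was in another lane than the other young mice, so p-values measure only the spread between these mice. Single values went through exact permutation of the mice, two-sided. DESeq2 1.42.0 and limma 3.58.1 (R 4.3.3) were alternatives. DM used genes of at least 10 RPM and a window of 100 genes. Co-detection ratios had 0.5 cells added to both numbers. Exon lengths and sequences came from GENCODE M21. Other alternatives were at least 5 reads or 10 RPM for detection, thinning to 100000 reads, tertiles by genes detected, pooled cells, 1 lane, and leaving out each mouse. Scripts ran in Python (numpy, scipy, pandas), and the test across genes, the correlation and DM were tested on simulated data. Some items are not reported here.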

Additional observations from a re-analysis of the deposited data

Results flagged for a closer look

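Among 67 sets of 4 young mice tested for a sample far from the others, 6 were flagged, and chance flags about 1 in 20. *Pax3* in Y5 stood apart in detection, at 9.09% of cells, and in summed counts, at 59.7 CPM, while the other young mice had 3.33% to 4.05% and under 6 CPM. *Myf6* in Y4 stood apart at 1.67% of cells and 5.35 CPM, which is 1 cell, and was at 0 in the other young mice. The rho of *Pax7* with *Akap2*, −0.18, and with *Gm20459*, −0.19, was nearer to 0 in Y7 than in the other young mice, and these genes count nearly the same reads.

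The rho of *Myod1* and *Msc* was above 0 in every young and below 0 in every old mouse, with an old minus young difference of −0.22, and this difference was not tested. It was not the only such pair. The ages did not overlap either for *Msc* with *Myf5* or for *Msc* with *Eya1*, as given above. The old values rest on 8 and 10 cells with *Msc* reads.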

How the results depend on the processing

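The direction held for the number of members per cell and for the detection of *Pax7*, *Myf5*, *Msc* and *Six4* under every alternative run. With 4 against 2 mice the exact test cannot go below 0.133, so its p says nothing about stability. No paired analysis was possible because the mice of the 2 ages share only 1 number (5). By detection, *Pax3* turned to −0.55 points at 10 RPM and −0.49 in tertiles, and without 1 mouse ranged from −3.33 to 3.70. So did *Myod1* (−5.39 to 1.75), *Myf6* (−0.42 to 1.37) and *Eya1* (−10.4 to 0.45). In level in expressing cells (log2, old over young), lane 2 alone gave −0.34 for *Pax7* and −0.37 for *Myod1*, the mean in place of the median gave 0.023 for *Myf5* and 0.29 for *Eya1*, 5 reads gave −0.026 for *Msc* and 0.093 for *Eya1*, and thinning gave −0.022 for *Msc*. Without 1 mouse these levels ranged from −0.15 to 0.23 (*Pax7*), −0.18 to 0.49 (*Myod1*), −0.36 to 0.65 (*Msc*) and −3.02 to 1.23 (*Eya1*). DM differences turned with equal cell numbers (*Pax7* −0.040, *Msc* −0.20, *Eya1* 0.11), in lane 2 (*Pax7* −0.0018, *Myf5* 0.17, *Myod1* −0.44, *Msc* −0.11) and with thinning (*Eya1* 0.038), and without 1 mouse ranged from −0.16 to 0.091 (*Myf5*), −0.10 to 0.18 (*Myod1*), −0.14 to 0.17 (*Msc*) and −0.072 to 0.0085 (*Eya1*). The co-detection ratio of *Pax7* and *Myf5* was 0.066 at 5 reads, and the median rho of *Pax7* with early genes 0.22 for genes in 50% of cells. Summed counts gave 0 called genes by edgeR, but 16 with no filter beyond 1 read, 544 by DESeq2, and 55 or 35 by limma with a pseudocount of 1 or 10 RPM. In log2 fold change, limma with 1 or 10 RPM turned *Pax7* (−0.42, −0.25), *Pax3* (−0.018, −0.014), *Myod1* (−0.24, −0.15) and *Eya1* (−0.46, −0.28), lane 2 turned *Myf5* (1.05), *Myod1* (−0.57) and *Msc* (0.21), and thinning *Eya1* (−0.022). Without 1 mouse the log2 fold change ranged from −5.37 to 2.51 (*Pax3*), −0.57 to 0.19 (*Myf5*), −7.58 to 1.52 (*Myf6*) and −0.72 to 0.59 (*Eya1*). None of these turned values was past a threshold, and the cause was not tested. With 2 old mice, a p that misses the threshold does not show that the ages are alike.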
